A study of Arabidopsis thaliana with 12 samples.

Results

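ALC and NAP are 2 genes of silique ripening, and their transcript levels are described here in ripening siliques of 4 Arabidopsis genotypes. They were chosen by name, ALC (AT5G67110) as a gene of pod dehiscence and NAP (AT1G69490) as a gene of senescence. Each is represented by 1 of the 22810 probe sets on the ATH1 array, and both were among the 64.4% of the non-control probe sets that were bright enough to be tested. Siliques are the pods in which the seeds mature, and whole siliques were harvested between 18 and 19 days after pollination. Each genotype was measured on 3 arrays. The replicates are described in the methods as independent and biological. All 4 genotypes share the Landsberg erecta (Ler) background: hub1-2, labelled rdo4, is a mutant of the histone H2B ubiquitin ligase gene HUB1. The rdo2-1 mutant carries a small deletion in the gene of the transcription elongation factor TFIIS, rdo3 is a further mutant with reduced seed dormancy, and Ler itself is the wild type. Each mutant was represented by 1 allele.

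A ripe silique opens along its valve margins, where a lignified layer lies beside a separation layer of thin-walled cells. ALC (ALCATRAZ) encodes a basic helix-loop-helix transcription factor that is needed for the separation layer, and acts downstream of the MADS-box factors that set up the valve margin. NAP encodes a NAC family transcription factor that promotes senescence of leaves and of the silique wall, through abscisic acid among other routes.

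Values are GC-RMA intensities in arbitrary units on a linear scale, with array medians of 11.57 to 12.1 over all probe sets, and those of ALC and NAP lay above the median in every array. The median of the tested probe sets, by mean log2 intensity over the 12 arrays, was higher, at 51.95. Mean ALC intensity lay under it in hub1-2 (21.35), rdo3 (43.72) and Ler (48.63). The hub1-2 values of ALC were not shown to be above background. The intensity of one probe set cannot be compared with that of another, so that the 2 genes are compared only by their differences between genotypes. The 12 arrays correlated with each other at 0.957 to 0.994, and no pair held identical values. The HUB1 transcript measured 160 to 212 in hub1-2, 36.6 to 48.3 in rdo2-1, 45.7 to 84.8 in rdo3 and 67.8 to 86.8 in Ler. It was highest in the mutant and so does not check the label, and RDO2 was not analysed here. The name of NAP comes only from the study's own list of genes that differed between hub1-2 or rdo2-1 and Ler on these arrays, so that its differences from Ler are not independent of how it came to be named.

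ALC was low in hub1-2, high in rdo2-1, and close to wild type in rdo3. Its intensity was 21.5, 22.2 and 20.4 in the hub1-2 arrays, which differed little among themselves. The rdo2-1 arrays measured 124.7, 64.3 and 135.5, so that the second lay well below the others and yet above every array of the remaining genotypes. In rdo3 the values were 48.5, 39.7 and 43.0, and in Ler 49.4, 40.2 and 56.3, which overlap. All 3 hub1-2 arrays were thus below all 9 others, as they were for 8.69% of the probe sets tested, and all 3 rdo2-1 arrays were above all 9 others, as for 4.69%. Mean ALC intensity was 21.4 ± 0.939 in hub1-2, 108.2 ± 38.4 in rdo2-1, 43.7 ± 4.42 in rdo3 and 48.6 ± 8.05 in Ler (SD, n = 3 each). By mean the order was rdo2-1, Ler, rdo3 and hub1-2, and the neighbours that did not differ beyond their spread were rdo3 and Ler.

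NAP showed the same order at the ends. Its intensity was 74.1, 73.4 and 32.9 in the hub1-2 arrays, with the third well below the others. It was 399.7, 296.0 and 323.8 in rdo2-1, and the lowest of these lay above every array of the other genotypes. The values were 227.4, 151.6 and 210.7 in rdo3 and 212.5, 185.2 and 140.9 in Ler, so that these genotypes overlapped. Mean NAP intensity was 60.1 ± 23.6 in hub1-2, 339.8 ± 53.7 in rdo2-1, 196.6 ± 39.8 in rdo3 and 179.5 ± 36.1 in Ler (SD, n = 3 each), from which the order was rdo2-1, rdo3, Ler and hub1-2. Again rdo3 and Ler were the neighbours that did not differ beyond their spread. The coefficient of variation was largest for NAP in hub1-2 (39.2%) and for ALC in rdo2-1 (35.5%), and smallest for ALC in hub1-2 (4.4%).

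**Figure D1:**
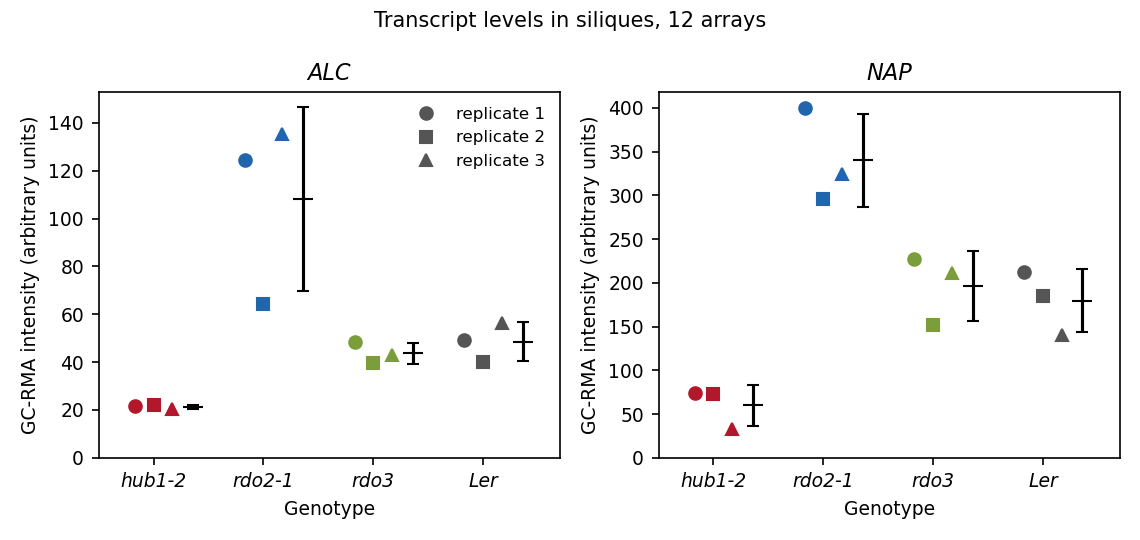
GC-RMA intensity (arbitrary units, linear axis) of ALC and NAP in each silique array, by genotype. Symbols mark replicates 1 to 3, and the bars beside them give the mean and SD of 3 arrays. For both genes the hub1-2 arrays lie below all others and the rdo2-1 arrays above all others, while rdo3 and Ler overlap.

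Compared with wild type, ALC fell in hub1-2 by 1.17 on the log2 scale (standard error 0.17, 95% confidence interval -1.56 to -0.79, adjusted p = 0.00223 by limma with Benjamini-Hochberg adjustment), a 2.26-fold difference. NAP fell by 1.65 (standard error 0.32, interval -2.37 to -0.94, limma adjusted p = 0.00747), a 3.14-fold difference. These were 2 of the probe sets called lower in hub1-2, which made up 3.92% of those tested, while 5.53% were called higher. This excess of higher calls depends on scaling, with 810 higher and 575 lower on the deposited values and 679 higher and 683 lower after median centring. A larger difference between hub1-2 and Ler, in either direction, was measured for 3.96% of the probe sets in the case of ALC and for 1.55% in the case of NAP. The call for NAP was lost without any 1 of the 6 arrays (adjusted p between 0.0116 and 0.0297), and that for ALC without hub1-2 replicate 1 (0.0117), 2 (0.0107) or 3 (0.015), although the log2 difference stayed at -1.26 or below for NAP and at -1.06 or below for ALC.

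In rdo2-1 both genes were higher than in Ler in all 3 arrays, but limma did not call either. The log2 difference was 1.09 for ALC (standard error 0.30, interval 0.43 to 1.76, limma adjusted p = 0.0787) and 0.93 for NAP (standard error 0.20, interval 0.47 to 1.38, limma adjusted p = 0.0431). Few probe sets passed in this comparison, 0.0819% of those tested as higher and 0.0614% as lower. With CyberT, the regularized test named in the study's methods, NAP was called (adjusted p = 0.00633) and ALC was not (adjusted p = 0.0209), where 1.65% of the probe sets passed as higher and 1.75% as lower with that test. For a single gene, an exact two-sided permutation test of 3 arrays against 3 cannot give a p below 0.1.

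The rdo3 siliques did not differ detectably from Ler in either gene. The log2 difference was -0.15 for ALC (standard error 0.19, interval -0.57 to 0.28, limma adjusted p = 0.837) and 0.13 for NAP (standard error 0.21, interval -0.35 to 0.61, limma adjusted p = 0.876). Both intervals leave out a fall of the size measured in hub1-2 and a rise of the size measured in rdo2-1. Only 0.0205% of the probe sets were called between rdo3 and Ler in either direction. These comparisons share the Ler arrays, and are therefore given side by side only.

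The mutants were also compared directly. Between hub1-2 and rdo2-1, ALC differed by -2.27 (standard error 0.27, interval -2.88 to -1.66, limma adjusted p = 4.7e-04), or 4.82-fold. NAP differed by -2.58 (standard error 0.30, interval -3.25 to -1.91, limma adjusted p = 4.0e-04), or 5.98-fold. A larger difference between these mutants was measured for 0.785% of the probe sets in the case of ALC and for 0.444% in the case of NAP, while limma called 7.64% lower and 11.9% higher in hub1-2. That balance depends on scaling, since the calls were 1747 higher and 1120 lower on the deposited values, but 1198 higher and 1596 lower when each array was centred on its median, which moved the median log2 difference of all probe sets by -0.115. Both calls held under each of the 14 alternatives tried.

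Relative to rdo3, ALC in hub1-2 was lower by a log2 difference of -1.03 (standard error 0.14, limma adjusted p = 0.00166) and NAP by -1.78 (standard error 0.32, limma adjusted p = 0.00547), where 4.74% of the probe sets were called lower. The call of ALC was lost with all 12 arrays in one fit (adjusted p = 0.0112) and without hub1-2 replicate 3 (0.0103) or rdo3 replicate 3 (0.0104). That of NAP was lost with the replicate block (0.0115) and without hub1-2 replicate 1 (0.0113) or 2 (0.0127) or rdo3 replicate 1 (0.02) or 3 (0.0284). Between rdo2-1 and rdo3 the differences were 1.24 for ALC (standard error 0.28, limma adjusted p = 0.0607) and 0.80 for NAP (standard error 0.20, limma adjusted p = 0.0748), in a comparison with 0.123% called higher. CyberT called ALC here (adjusted p = 0.0079) and not NAP (adjusted p = 0.0111), with 1.25% of the probe sets called higher. Both genes were among the 247 probe sets (1.69%) called lower by limma in hub1-2 than in each of the 3 other genotypes, a place that rests on the calls against Ler and rdo3 that some alternatives lose.

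**Figure D2:**
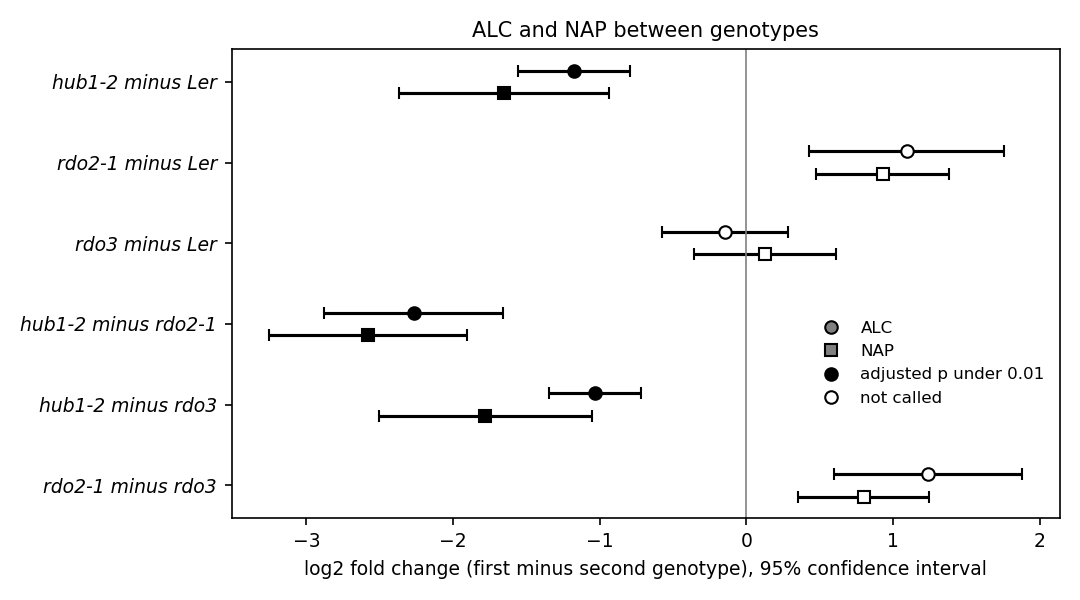
Log2 fold change (first minus second genotype) of ALC and NAP in the 6 comparisons of genotypes. Circles are ALC, squares are NAP, and bars are 95% confidence intervals from limma on 3 arrays of each genotype. Filled symbols mark an adjusted p under 0.01. The 3 comparisons of hub1-2 lie left of 0, those of rdo2-1 with Ler and rdo3 lie right of 0 without being called, and the intervals of rdo3 minus Ler span 0.

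The combination of hub1-2 below and rdo2-1 above every rdo3 and Ler array was found for 130 probe sets, or 0.887% of those tested, of which 99 have a single gene name. Ordered by the gap between the mutants, NAP was 8th and ALC 13th, and 19 of the 130 had a gap of at least 2 on the log2 scale. ADPG1, a polygalacturonase gene that acts in the dehiscence zone, was a further member, with a smaller gap. Its intensity was 9561, 9730 and 11399 in hub1-2, 16418, 15240 and 14877 in rdo2-1, 12901, 12016 and 13240 in rdo3, and 13856, 11909 and 13091 in Ler. ADPG1 was called lower in hub1-2 than in rdo2-1 (log2 difference -0.60, limma adjusted p = 7.1e-04), whereas its differences from Ler were -0.34 in hub1-2 (adjusted p = 0.0192) and 0.26 in rdo2-1 (adjusted p = 0.096).

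Of 24 other genes of a list on dehiscence, 8 had a tested probe set with their name. For 4 of the 8 the name came from the study's list of differing genes, so that the counts are not independent evidence of a change. In hub1-2, limma called 1 of the 8 higher (QRT2) and 2 lower (FIL and CEL6) than in Ler, beside 5.53% and 3.92% of all probe sets tested. CyberT called 2 of the 8 higher (SPT and QRT2) and 4 lower (SHP2, FIL, ADPG1 and CEL6), beside 9.7% and 7.31% of all. In rdo2-1 limma called 0 of the 8, with 4 at an unadjusted p under 0.05, which 21.4% of all probe sets met, and CyberT called ADPG2 and QRT2 higher and CEL6 lower, beside 1.65% and 1.75% of all. In rdo3 limma called 0, with 3 at an unadjusted p under 0.05, which 10.5% of all met, and CyberT called CEL6 lower, where it called 1.01% of all probe sets in either direction. The median log2 difference from Ler over the 8 genes was -0.07 in hub1-2, 0.06 in rdo2-1 and 0.21 in rdo3, against 0.02, -0.01 and -0.01 over all probe sets tested. ALC itself measured -1.17 in hub1-2, 1.09 in rdo2-1 and -0.15 in rdo3.

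Among the regulators on this list, SPT, which encodes the nearest relative of ALC and shares its role in the fruit, measured 1371 ± 57.2 in hub1-2, 1037 ± 251 in rdo2-1, 1182 ± 105 in rdo3 and 1044 ± 31.1 in Ler (SD, n = 3 each). Its log2 difference from Ler was 0.39 in hub1-2 (limma adjusted p = 0.0123) and -0.04 in rdo2-1 (limma adjusted p = 0.922). CyberT called SPT higher in hub1-2 than in Ler (adjusted p = 0.00725), the opposite direction to ALC. SHP2, a MADS-box gene that acts upstream of ALC at the valve margin, measured 130.6 ± 25.8 in hub1-2, 247.9 ± 16.0 in rdo2-1, 263.6 ± 23.4 in rdo3 and 222.4 ± 14.2 in Ler (SD, n = 3 each). SHP2 was lower in hub1-2 in every array. Limma called it against rdo2-1 (log2 difference -0.94, limma adjusted p = 0.00361) and rdo3 (-1.03, 0.00358), but not against Ler (-0.79, 0.012). Against Ler it passed with limma after median centring or quantile normalization, and with CyberT (adjusted p = 0.00272). FIL, a YABBY gene of the valves, was called lower in hub1-2 than in Ler (log2 difference -1.07, limma adjusted p = 0.00716). IND, SHP1, FUL, RPL, NST1 and SND1 were not analysed here.

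Among the enzymes of cell separation, the polygalacturonase gene QRT2 was called higher in hub1-2, at 102.9 ± 50.9 against 34.0 ± 3.48 in Ler (SD, n = 3 each, log2 difference 1.5, limma adjusted p = 0.00866), a call that was lost after quantile normalization. The value in rdo2-1 was 113.2 ± 53.8 (SD, n = 3, log2 difference from Ler 1.62, limma adjusted p = 0.036). ADPG2, a further polygalacturonase gene, measured 2712 ± 194 in hub1-2, 3365 ± 456 in rdo2-1 and 2183 ± 250 in Ler (SD, n = 3 each), with no limma call. CEL6, encoding a cellulase of the dehiscence zone, was the largest fall on the list. It measured 9.18 ± 2.67 in hub1-2, 15.8 ± 5.45 in rdo2-1, 21.0 ± 3.33 in rdo3 and 73.9 ± 33.2 in Ler (SD, n = 3 each), and was called lower in hub1-2 (log2 difference -2.95, limma adjusted p = 9.6e-04). The hub1-2 mean of CEL6 lies under the array median and was not shown to be above background, so that the size of this fall is uncertain.

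Of 29 other genes of a list on senescence, 7 had a tested probe set with their name, 4 of them again named only through the study's list of differing genes. NAP fell in hub1-2, whereas all 7 had positive log2 differences between hub1-2 and Ler, with a median of 0.30 against 0.02 over all probe sets tested. Against Ler, limma called 0 of the 7 in hub1-2, rdo2-1 and rdo3, with 4, 4 and 3 at an unadjusted p under 0.05 in these mutants, beside 37.5%, 21.4% and 10.5% of all probe sets tested. CyberT called 3 higher in hub1-2 (ATAF1, WRKY6 and SEN1), beside 9.7% of all, 3 in rdo2-1 (ORE1, SAG29 and GDH2), beside 1.65%, and 1 in rdo3 (SEN1), where it called 1.01% in either direction. The median was 0.71 in rdo2-1 and 0.35 in rdo3, against -0.01 over all probe sets in each. Between hub1-2 and rdo2-1 limma called 3 of the 7 lower and 1 higher, beside 7.64% and 11.9% of all probe sets. The balance over all probe sets turned after median centring, while the 3 genes called lower stayed called.

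ORE1, a NAC gene that promotes leaf senescence, measured 1331 ± 148 in hub1-2, 1974 ± 275 in rdo2-1, 1703 ± 112 in rdo3 and 1157 ± 108 in Ler (SD, n = 3 each). SAG29, encoding a sugar transporter that is active in senescing tissue and in seeds, measured 3549 ± 329 in hub1-2, 5554 ± 241 in rdo2-1, 4118 ± 512 in rdo3 and 3261 ± 705 in Ler (SD, n = 3 each). The values of GDH2, encoding a glutamate dehydrogenase subunit, were 785.7 ± 96.4 in hub1-2, 1247 ± 218 in rdo2-1, 882.6 ± 117 in rdo3 and 756.9 ± 64.9 in Ler (SD, n = 3 each). These are the 3 genes that were lower in hub1-2 than in rdo2-1, with log2 differences of -0.57 for ORE1 (limma adjusted p = 0.00896), -0.65 for SAG29 (8.1e-04) and -0.66 for GDH2 (0.00883). The call of ORE1 was lost after quantile normalization. Unlike those of NAP, their hub1-2 means lay above Ler by 0.20, 0.14 and 0.05 on the log2 scale, with no call. EIN3, a transcription factor gene of ethylene signalling, was higher in hub1-2 than in rdo2-1 (log2 difference 0.43, limma adjusted p = 0.00743), which did not pass after median centring. Of 7 genes of chlorophyll breakdown, NOL, for a chlorophyll b reductase subunit, was the only one measured, and its log2 difference from Ler was -0.46 in hub1-2, -0.19 in rdo2-1 and -0.37 in rdo3, with no call. SAG113, AAO3, SAG12 and NYE1 were not analysed here.

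NAP belongs to a small branch of the NAC family, of which 2 of 4 other genes were measured. NARS2, which acts in the seed coat to support embryo development, fell in hub1-2 to 1920 ± 188, against 3203 ± 357 in Ler (SD, n = 3 each, log2 difference -0.74, limma adjusted p = 0.00241). In rdo2-1 it was 2836 ± 578 (SD, n = 3), with a log2 difference from Ler of -0.19, so that NARS2 did not show the high rdo2-1 values of NAP. ANAC047 had its highest values in rdo3, at 436.3 ± 61.6 against 165.1 ± 35.8 in Ler (SD, n = 3 each, log2 difference 1.41, limma adjusted p = 0.0336, CyberT adjusted p = 1.8e-04). Unlike NAP, it was above Ler in hub1-2, at 269.7 ± 45.2 (SD, n = 3). That log2 difference was 0.715 (limma adjusted p = 0.0278, CyberT adjusted p = 0.00967). In rdo2-1 the log2 difference of ANAC047 from Ler was 0.78 (limma adjusted p = 0.066, CyberT adjusted p = 0.0253). NARS1 was not analysed here. Both measured genes were named through the study's list.

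**Figure D3:**
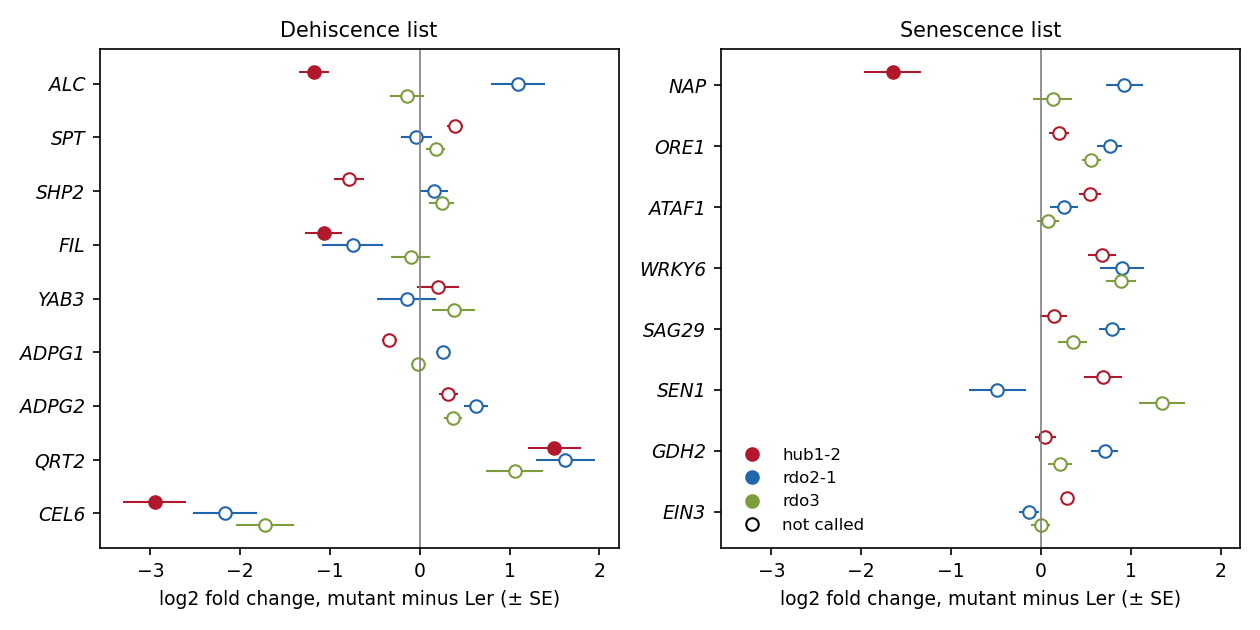
Log2 fold change (mutant minus Ler, with standard error) of ALC and the measured dehiscence genes, and of NAP and the measured senescence genes, in hub1-2 (red), rdo2-1 (blue) and rdo3 (green). Filled points were called by limma at an adjusted p under 0.01 over all probe sets tested, and open points were not. ALC and NAP are called lower in hub1-2 with positive values in rdo2-1, whereas the other senescence genes all have positive values in hub1-2.

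A whole silique holds valves, valve margins and seeds, and in bulk tissue fewer cells of a type and less RNA per cell cannot be told apart. Of 10 photosynthesis genes, which mark green tissue, 4 were measured, and none was at 0. Their summed intensity was 5063, 4405 and 3649 in hub1-2, 7749, 5990 and 9884 in rdo2-1, 7170, 5239 and 6249 in rdo3, and 7603, 6186 and 9643 in Ler. All hub1-2 sums lay below those of the other genotypes, as the ALC and NAP values did, but the sum is mostly RCA (mean 3276 of 4372 in hub1-2). LHCA1 and PSAD1 overlapped between genotypes, with 415.3 and 376.5 in hub1-2 replicate 1 against 316.3 and 230.7 in rdo3 replicate 2. PSBO1 and RCA, 2 of the 4 genes, were called lower in hub1-2 than in Ler, beside 3.92% of all probe sets. Against rdo3 limma called 0 of the 4 lower, beside 4.74% of all. CyberT called 4 of the 4 lower in hub1-2 than in Ler, beside 7.31% of all. Against rdo3 CyberT called 3 of the 4 lower (LHCA1, PSBO1 and RCA), where it called 1188 probe sets lower. All 4 had negative log2 differences in hub1-2 against each other genotype. The medians were -0.99 against Ler, -1.04 against rdo2-1 and -0.76 against rdo3, beside 0.02 over all probe sets in each. Within rdo2-1, rdo3 and Ler the arrays ranked in the same order for the photosynthesis sum as for ALC, while in hub1-2 they did not. For NAP the orders were the same in hub1-2 and rdo3, and differed in rdo2-1 and Ler. Of 10 seed storage and oil body genes, 3 were measured, with summed intensities of 73065 to 87063 in hub1-2, 96714 to 101593 in rdo2-1, 82561 to 87420 in rdo3 and 77230 to 86380 in Ler. The rdo2-1 sums were above all others, as its ALC and NAP values were, but this did not hold for each of the genes SESA1, SESA2 and SESA4. SESA1 measured 30836, 32025 and 30867 in rdo2-1 and 31144, 31056 and 30605 in Ler (log2 difference 0.01, limma adjusted p = 0.901). All 3 genes were called lower in hub1-2 than in rdo2-1, beside 7.64% of all probe sets, though none was after quantile normalization. These 3 genes, and 3 of the 4 photosynthesis genes, were named only through the study's list of differing genes. Their counts are therefore not independent evidence of a change. The part of these tissue markers in the differences of ALC and NAP was not tested.

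The genes with profiles most like that of ALC were sought among 4507 named probe sets of above-median intensity, by the Pearson correlation of log2 intensity over the 12 arrays. The highest values were those of HAT22, a homeodomain-leucine zipper gene (r = 0.977), PEX4, for a peroxisomal ubiquitin-conjugating enzyme (0.976), AT3G48140 (0.969), MYB28, a regulator of aliphatic glucosinolate synthesis (0.965) and AT1G64850 (0.958). HAT22 measured 331.1 ± 20.9 in hub1-2, 743.5 ± 63.8 in rdo2-1, 499.2 ± 40.4 in rdo3 and 501.9 ± 24.2 in Ler (SD, n = 3 each), the same order of genotypes as for ALC. The log2 difference between hub1-2 and rdo2-1 was -1.17 for HAT22 and -0.64 for PEX4, against -2.27 for ALC. The 12 arrays are 3 of each of 4 genotypes, so that these correlations rest largely on the 4 group means. Some candidates, among them HAT22 and MYB28, were named only through the study's list of differing genes. The search was therefore not independent of differences between these genotypes.

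For NAP, the most similar profiles were those of APR1, for an enzyme of sulfate assimilation (r = 0.973), AT1G16950 (0.966), AT2G41380 (0.958), UGT74B1, for a glucosyltransferase of glucosinolate synthesis (0.955) and AT5G48790 (0.951). APR1, also named only through the study's list, measured 774.7 ± 88.7 in hub1-2, 2248 ± 221 in rdo2-1, 1706 ± 241 in rdo3 and 1383 ± 42.8 in Ler (SD, n = 3 each). AT1G16950 had a somewhat larger difference between hub1-2 and rdo2-1 than NAP, with 86.3 ± 30.3 in hub1-2 and 532.6 ± 75.7 in rdo2-1 (SD, n = 3 each, log2 difference -2.69), against -2.58 for NAP. ALC and NAP correlated with each other at 0.884, which placed NAP 133rd among the profiles most like ALC. ALC lay under the intensity limit of the search and was not itself a candidate. Its correlation would have placed it 93rd among the profiles most like NAP.

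**Figure D4:**
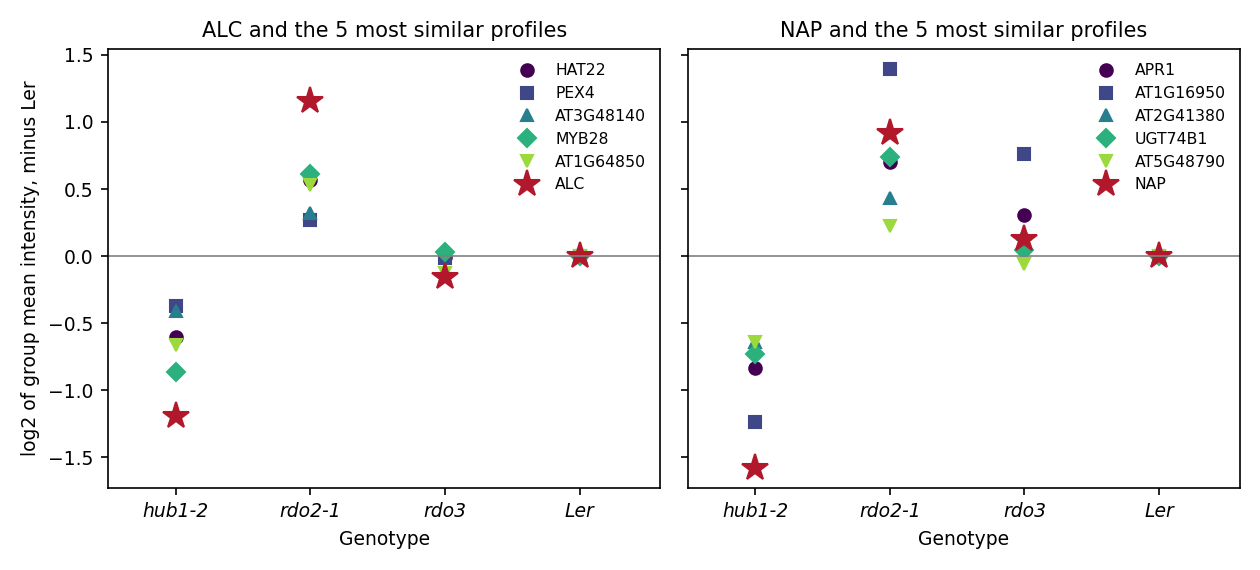
Log2 of the mean intensity of each genotype (3 arrays) minus that of Ler, for ALC and NAP (stars) and for the 5 genes whose log2 intensity over 12 arrays correlated best with each. The other genes are low in hub1-2 and high in rdo2-1 like ALC and NAP, and those beside ALC span a smaller range than ALC.

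ALC lies on chromosome 5 and NAP on chromosome 1. Of the 3 protein-coding genes on each side of ALC, only AT5G67130 had a tested probe set with its name, and it was not lower in hub1-2, with log2 differences of 0.37 between hub1-2 and Ler (limma adjusted p = 0.0629) and 0.62 between hub1-2 and rdo2-1 (limma adjusted p = 0.0119). Beside NAP, AT1G69480 and AT1G69510 were measured. AT1G69510 was called lower in hub1-2 than in rdo2-1 (log2 difference -0.61, limma adjusted p = 0.00881) and measured -0.45 between hub1-2 and Ler (limma adjusted p = 0.0269), and AT1G69480 measured -0.58 between hub1-2 and rdo2-1 (limma adjusted p = 0.0139) and -0.05 between hub1-2 and Ler. Each of these differences was smaller than that of NAP in the same comparison.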

How the data were processed

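RNA of whole siliques was hybridized to ATH1 arrays, 3 for each of 4 genotypes. The authors deposited intensity values that they had made with GC-RMA (background correction, normalization and summarization) in Expressionist Pro, on a linear scale. The sources used here do not say which arrays were normalized together. Of the columns of values, 0 were left unused. Samples were grouped by genotype labels.

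Intensities were turned into log2 values. The 64 control probe sets were left out. In place of the study's detection filter, as many probe sets as it had kept were taken in order of their second-highest intensity among the 9 arrays of hub1-2, rdo2-1 and Ler, down to 7.506. limma 3.58.1 in R 4.3.3 compared genotypes in pairs of 3 arrays with a trended prior, and calls were made at a Benjamini-Hochberg adjusted p under 0.01. CyberT (window 101, prior weight 10) was run on the same values. The test was checked on simulated data.

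Array annotation named 8040 of the kept probe sets, and 1117 more were named by gene codes in the study's list of differing genes, without its values. The other 5498 have no single name here. Gene order is that of RefSeq. The members, gene lists and alternatives were chosen with earlier results of these data known. Besides ALC and NAP, the genes named are their relatives and partners, the largest called changes of each list, and the 5 most similar profiles of each. ADPG1 is also named for its place among the 130 probe sets, chosen after the values were seen. Alternatives were no filter, one prior spread, all 12 arrays in one fit, median centring, quantile normalization, CyberT, a threshold of 0.05, a replicate block, and each array left out. Names were joined in Python 3.11.15 with pandas 2.3.3, and plots drawn with matplotlib 3.10.9.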

Additional observations from a re-analysis of the deposited data

How the results depend on the processing

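The difference between hub1-2 and rdo2-1 kept its call for both genes under each alternative, with log2 values of -2.61 to -2.07 for ALC and -2.78 to -2.19 for NAP when single arrays were left out. The threshold of 0.05 uses the same fit, so that no call made at 0.01 could be lost with it. Against Ler, hub1-2 values without single arrays lay between -1.30 and -1.06 for ALC and between -1.85 and -1.26 for NAP, and NAP lost its call with one prior spread (-1.65, adjusted p = 0.0113). Against rdo3, ALC in hub1-2 lost its call with all 12 arrays in one fit (-1.03, adjusted p = 0.0112) and without hub1-2 replicate 3 or rdo3 replicate 3 (values between -1.10 and -0.95). NAP lost it with the replicate block (-1.78, adjusted p = 0.0115) and without hub1-2 replicate 1 or 2 or rdo3 replicate 1 or 3 (values between -1.98 and -1.39). NAP in rdo2-1 against Ler passed with CyberT (0.93, adjusted p = 0.00633) and at a threshold of 0.05 (0.93, adjusted p = 0.0431), and ALC in rdo2-1 against rdo3 passed with CyberT (1.24, adjusted p = 0.0079). The difference of NAP between rdo3 and Ler was -0.035 without Ler replicate 3, and 0.31 at most without another array. The replicate numbers were not taken to pair the arrays, as same-numbered arrays correlated at -0.184 to 0.388 in their deviations from the group means. The highest values, 0.261 and 0.388, were those of replicates 2 and 3 in rdo2-1 against Ler, where replicate 1 gave -0.087. With the replicate block, the adjusted p in rdo2-1 against Ler was 0.0181 for ALC and 0.014 for NAP. No other call of ALC or NAP changed with the block. Calls over all probe sets between hub1-2 and Ler numbered 1385, against 871 with the replicate block, 2493 with CyberT, 3526 at the threshold of 0.05 and 398 to 1395 without single arrays. Those between rdo2-1 and Ler numbered 21, against 185, 498, 448 and 3 to 69 in the same order, 269 with all 12 arrays in one fit, 9 with one prior spread and 41 (28 of them higher, against 12 of the 21) after median centring. Those between hub1-2 and rdo2-1 numbered 2867, against 5464 at the threshold of 0.05 and 1122 to 2976 without single arrays. Those between hub1-2 and rdo3 numbered 1644, against 970 with the replicate block, 2758 with CyberT, 3885 at 0.05 and 511 to 2337 without single arrays. Between rdo2-1 and rdo3 there were 37, against 86, 417, 334 and 9 to 26 in that order and 232 with all 12 arrays in one fit, and between rdo3 and Ler 3, against 0, 148, 36 and 0, and 14 with all 12 arrays. Adjusted p-values here are from limma unless CyberT is named. The cause of these changes was not tested, other than that leaving out an array leaves fewer arrays.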
